A study of Mus musculus with 20 samples.

Results

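The muscle nicotinic acetylcholine receptor, the proteins that cluster it under the motor nerve ending and the genes known to respond when a muscle loses its nerve were followed here as 10 genes in the gastrocnemius, a muscle of the hind limb, of 20 old mice. They were chosen by name: the receptor subunits Chrna1, Chrnb1, Chrnd, Chrne and Chrng, the receptor-clustering kinase Musk, the adhesion molecule Ncam1, and Gadd45a, Runx1 and Hdac4, which are known for their part in the denervation response. All 10 symbols matched an Ensembl identifier among the 55401 genes of the count matrix, all 10 had counts in every mouse, and all 10 were among the 13626 genes tested.

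All mice were C57BL/6 animals aged 24 months, and muscle from young mice was not analysed here. The 10 HK-treated mice had drunk HK, or Haenkenium, an extract of the plant Salvia haenkei, with their water at 0.5 mg per kg per day for 4 months from the age of 20 months, and the 10 untreated mice drank water without it. Each group held 5 males and 5 females. The labels assign 8 mice to experimental batch 1 and 12 to batch 2, with 2 mice of each sex and treatment in batch 1 and 3 in batch 2, so that batch, sex and treatment can be told apart. Ribosomal RNA had been removed from total RNA, and whole-number counts per gene were deposited without normalization. Each mouse was counted as 1 replicate, and the labels do not say more about litters or cages.

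In adult muscle, acetylcholine released by the motor nerve opens a receptor of 5 subunits, in which the epsilon subunit has taken the place that the gamma subunit holds before birth. Its RNA is made mainly by the few nuclei beneath the synapse, where nerve-derived agrin acts through Musk to hold the receptors in place. When the nerve is lost or silent, the nuclei along the whole fibre make the receptor subunits again, gamma included, under the control of myogenin, the product of Myog, and Hdac4, Gadd45a, Runx1 and Ncam1 are known to rise in muscle fibres that have lost their nerve. In a bulk sample, more RNA per nucleus and more nuclei that make it cannot be told apart.

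The promoters of the adult subunit Chrne and of Chrna1 and Chrng, a pair of subunits that varied together between mice, are shown first, because they set the epsilon gene beside genes of the denervation response. Each is a RefSeq window on GRCm38.p6, read 5′ to 3′ on the gene's strand. It runs from 250 bases before to 50 bases after the start that RefSeq lists, which is the start meant for the motif matches. That start can differ from the gene positions given further on. The Chrng window lies wholly inside the gene as placed there, with a start at base 87204657. Capitals mark every match to CANNTG, the E-box to which myogenin and its relatives bind, which reads the same on both strands, and every match on either strand to CCGGAA, the core of the N-box described for synaptic genes. The letters CAGCTG are 1 form of the E-box. RefSeq windows were matched for 8 of the 10 genes, with no entry for Chrnd and Ncam1.

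Chrna1, chr2:73580289-73580588, minus strand:
Chrna1: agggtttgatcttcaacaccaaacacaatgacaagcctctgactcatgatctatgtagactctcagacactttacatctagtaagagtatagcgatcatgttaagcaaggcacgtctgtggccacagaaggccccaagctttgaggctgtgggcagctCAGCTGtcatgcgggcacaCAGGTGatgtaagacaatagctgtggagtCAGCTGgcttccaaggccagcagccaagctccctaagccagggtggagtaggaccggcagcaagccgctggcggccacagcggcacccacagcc
Chrng, chr1:87205561-87205860, plus strand:
Chrng: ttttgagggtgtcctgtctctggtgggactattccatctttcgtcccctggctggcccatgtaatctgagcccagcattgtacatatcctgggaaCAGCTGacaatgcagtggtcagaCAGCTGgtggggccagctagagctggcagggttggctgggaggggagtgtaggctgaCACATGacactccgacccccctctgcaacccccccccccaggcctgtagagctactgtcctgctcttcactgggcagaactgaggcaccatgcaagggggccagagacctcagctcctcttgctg
Chrne, chr11:70619145-70619444, minus strand:
Chrne: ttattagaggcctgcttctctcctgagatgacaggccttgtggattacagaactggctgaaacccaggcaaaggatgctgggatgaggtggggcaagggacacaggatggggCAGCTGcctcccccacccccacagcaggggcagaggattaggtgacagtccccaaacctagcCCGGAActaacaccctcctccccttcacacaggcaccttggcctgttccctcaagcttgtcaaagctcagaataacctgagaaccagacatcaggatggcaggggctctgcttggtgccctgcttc

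The windows of Chrna1 and Chrng each held 3 matches to CANNTG, 2 of them CAGCTG, and no match to CCGGAA. Chrne held 1 CANNTG, which was a CAGCTG 138 bases before the start, and 1 CCGGAA 76 bases before the start. In Chrna1 the CAGCTG letters lay 92 and 44 bases before the start, and in Chrng 155 and 132 bases before it. Musk and Chrnb1 each held 3 CANNTG matches, of which 1 in Musk was a CAGCTG, 68 bases before the start, and none in Chrnb1. Gadd45a held 1 CANNTG and 1 CCGGAA, and Hdac4 held neither. Of the 2 windows listed for Runx1, the first held 1 CCGGAA and the other 3 CANNTG. Among 32851 promoter windows of 300 bases, 72.3% held CANNTG, 16.3% held CAGCTG and 14.9% held CCGGAA, so that CANNTG alone sets no gene apart. These matches describe the letters and say nothing of a protein bound there.

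The levels of the 10 genes spanned a wide range, which is given in CPM (the count relative to the library total, scaled by TMM, a normalization that corrects for differences in RNA composition) divided by the exon length in kilobases. Gadd45a, a stress- and denervation-inducible gene at chr6:67035096-67037457, had a median of 25.7 CPM per kb, and Chrnb1, the beta subunit at chr11:69784036-69795943, had 21.5. Gadd45a lay above Chrnb1 in only 11 of 20 mice, so that the order of these neighbours is not fixed. Chrnb1 lay above the next gene, Chrne, in 20 of 20 mice.

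Chrne, the adult epsilon subunit at chr11:70614883-70619216, had a median of 8.63 CPM per kb, Chrna1, the alpha subunit that carries the acetylcholine binding site, at chr2:73563215-73580338, had 6.04, and Musk at chr4:58285960-58374303 had 5.84. Chrne lay above Chrna1 in 17 of 20 mice, whereas Chrna1 lay above Musk in 12 of 20. Hdac4, a class IIa histone deacetylase at chr1:91928779-92195699, followed at 3.41 CPM per kb.

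The delta subunit Chrnd (chr1:87190607-87200070) and the neural cell adhesion molecule Ncam1 (chr9:49502136-49798925) had medians of 1.08 and 0.935 CPM per kb and changed places from mouse to mouse, with Chrnd higher in 11 of 20. Runx1, a transcription factor at chr16:92601466-92826149, had a median of 0.642 CPM per kb. The fetal gamma subunit Chrng (chr1:87204657-87212694) was the lowest at 0.243 CPM per kb. By these positions Chrng starts 4586 bases beyond the end of its neighbour Chrnd on the same strand. The counts of Chrng ran from 1 to 313 per mouse with a median of 23.5, and those of Chrnd from 24 to 164, so both are measured less closely than Chrnb1, with 523 to 1808. The exons of Ncam1, Gadd45a, Runx1 and Hdac4 overlap a gene on the opposite strand, by 417, 337, 106 and 3536 bases, and since the sources used here do not state whether strand was counted, some of their counts could belong to the other gene.

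**Figure D1:**
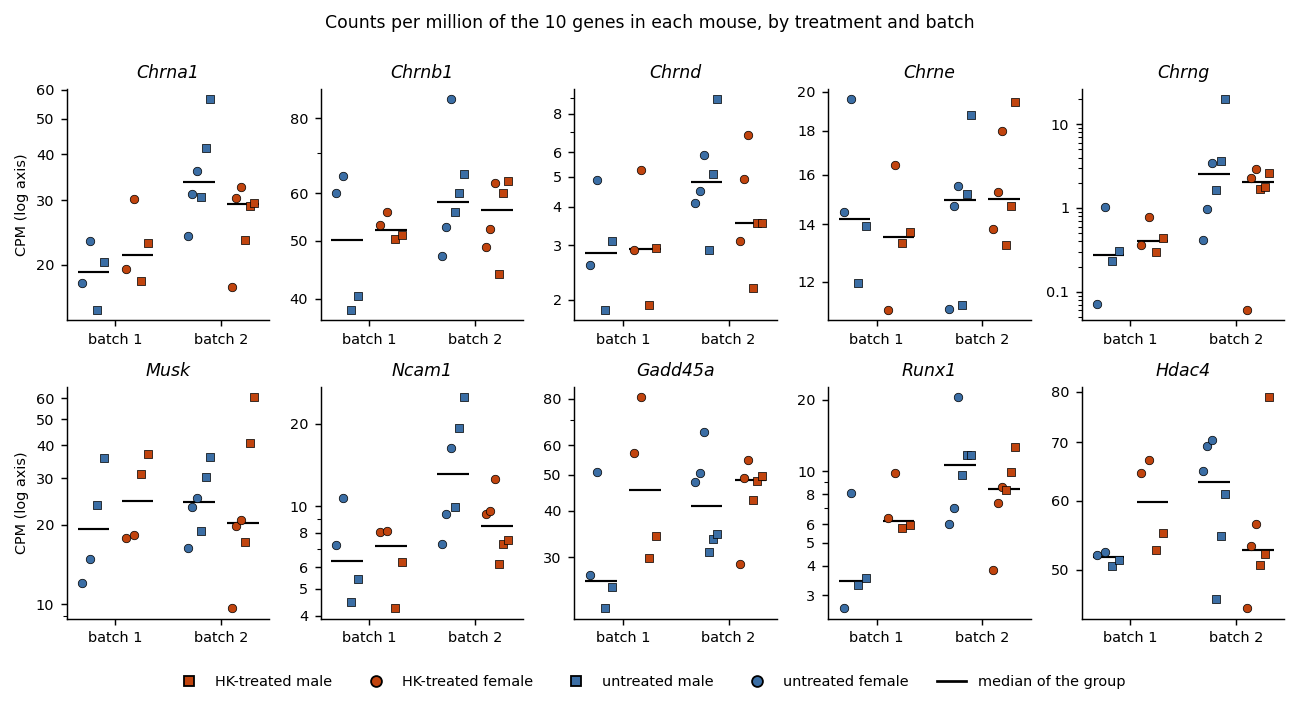
CPM (log axis) of each of the 10 genes in each mouse, by batch and treatment, with squares for males, circles for females and a line at the median of each group of 4 (batch 1) or 6 (batch 2). Untreated male 5 holds the highest Chrng value, 19.96 CPM, and batch 2 lies mostly above batch 1 for Chrna1, Chrng, Ncam1 and Runx1.

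The genes differed in how much they varied between mice. Hdac4, Chrne and Chrnb1 varied least, with coefficients of variation over the 20 mice of 15.6%, 17.6% and 18.9%. Gadd45a and Chrna1 followed with 34.8% and 35.5%, then Chrnd with 44.0%, Musk with 47.5%, Runx1 with 50.5% and Ncam1 with 53.1%. Chrng had the highest value, 192%, which was 89.2% without untreated male 5. These coefficients are taken over both batches and sexes, and within batch 1 and batch 2 that of Chrng was 71.3% and 154%. Untreated male 5 had the highest value of all 20 mice for 4 genes, Chrna1, Chrnd, Chrng and Ncam1, and HK-treated female 3 had the lowest value of the 12 mice of batch 2 for 5 genes, Chrna1, Chrng, Musk, Gadd45a and Runx1.

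The balance of fetal to adult subunit was read as the share of Chrng in the sum of Chrng and Chrne, both per kb. The lengths are those of all annotated exons of each gene, 4163 bases for Chrng and 1690 for Chrne. The share thus depends on the annotation, and the lengths of the transcripts present were not measured. Over all mice this share had a median of 3.14%, so Chrne made up most of the sum. In HK-treated mice it ran from 0.137% through a median of 3.30% to 7.83%, and in untreated mice from 0.146% through 3.14% to 34.8%. The medians of the groups were thus close, and the ranges overlapped. The highest share was that of untreated male 5, with 313 counts of Chrng against 238 of Chrne (95% exact binomial interval 31.0% to 38.8%, which covers counting error only). The lowest rested on 1 count of Chrng in HK-treated female 3 (0.0035% to 0.764%). In batch 1 the median share was 1.17% and in batch 2 it was 5.37%.

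The first question of the design is whether HK changed these genes. With batch and sex in the fit (edgeR, quasi-likelihood F test, p adjusted by Benjamini-Hochberg over 13626 genes), 0 of the 10 passed an adjusted p of 0.05, and over all genes 0% did so. The lowest adjusted p was 0.795 among the 10 and 0.356 among all genes. At an unadjusted p under 0.05, 2 of the 10 stood out, Ncam1 and Gadd45a, beside 6.13% of all genes. DESeq2's Wald test and limma voom also called 0 of the 10. The median log2 fold change of the 10 was -0.03, with 5 higher and 5 lower, beside 0.00 for all genes.

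Among the receptor subunits, Chrna1 ran from 17.43 through a median of 26.20 to 32.46 CPM in HK-treated mice and from 15.06 through 27.26 to 56.49 CPM in untreated mice. Its log2 fold change was -0.16 ± 0.16 (SE, n = 10 and 10; adjusted p = 0.878 in edgeR). No HK-treated mouse lay outside the untreated range, whereas 3 untreated mice lay above the highest HK-treated mouse. Chrnb1, the beta subunit, had 44.01, 52.68 and 62.96 CPM as its lowest, median and highest value under HK and 38.34, 57.88 and 86.03 CPM without it, which is a log2 fold change of -0.06 ± 0.11. Its untreated mice spread over the wider range.

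Chrnd, the delta subunit, ran from 1.92 through 3.32 to 6.81 CPM in HK-treated and from 1.85 through 4.31 to 8.93 CPM in untreated mice, which gave a log2 fold change of -0.23 ± 0.23. Chrne, the adult subunit, ran from 11.12 through 14.28 to 19.47 CPM in HK-treated and from 11.14 through 14.59 to 19.60 CPM in untreated mice, nearly the same range in both groups. Its log2 fold change was 0.02 ± 0.11, with a 95% interval from -0.22 to 0.25.

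Chrng, the fetal subunit, ran from 0.06 through 1.23 to 2.90 CPM under HK and from 0.07 through 1.01 to 19.96 CPM without it. The medians of the groups were close, and the group means of 1.32 ± 1.06 and 3.17 ± 6.03 CPM (SD, n = 10 each) were set apart by untreated male 5. The fitted log2 fold change was -0.83 ± 0.61 with this mouse (adjusted p = 0.836 in edgeR) and -0.01 ± 0.49 without it. Chrng and Runx1 are also among the genes that the study listed as higher in old than in young muscle, a list made with the untreated mice used here, so a lower value of either under HK would not be independent evidence.

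Musk, the kinase through which agrin signals, had 9.66, 20.28 and 60.60 CPM as its lowest, median and highest value in HK-treated mice and 12.03, 23.57 and 36.15 CPM in untreated mice. Its log2 fold change was 0.15 ± 0.20. The HK-treated mice held both ends of the range, with 3 above and 1 below all untreated mice.

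Ncam1, which is present at the synapse of innervated fibres and along the whole fibre after denervation, ran from 4.26 through 7.78 to 12.60 CPM in HK-treated and from 4.48 through 9.62 to 24.93 CPM in untreated mice. Its log2 fold change was -0.49 ± 0.22 (unadjusted p = 0.0404, adjusted p = 0.795 in edgeR). In 9 of 10 HK-treated mice Ncam1 lay below the untreated median. Without untreated male 5 the log2 fold change was -0.33 ± 0.19, and over the fits that leave out 1 mouse each it lay between -0.58 and -0.33, with an unadjusted p under 0.05 in 10 of 20. The markers of slow fibres moved in the same direction as Ncam1: 7 of 7 were lower in HK-treated mice, 0 of them past the adjusted threshold, by a median of -0.71 on the log2 scale. Their summed levels were 771 to 3662 CPM in HK-treated and 808 to 6333 CPM in untreated mice. Of 7 leukocyte markers tested, 6 were lower in HK-treated mice and 1 higher, by a median of -0.30, and 0 passed the adjusted threshold. The part of either list in the difference of Ncam1 was not tested.

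Gadd45a ran from 28.73 through 48.47 to 80.60 CPM in HK-treated and from 21.89 through 34.08 to 65.02 CPM in untreated mice. Its log2 fold change was 0.34 ± 0.16 (unadjusted p = 0.0460, adjusted p = 0.795 in edgeR), and the untreated median was exceeded in 8 of 10 HK-treated mice. Leaving out 1 mouse at a time gave 0.24 to 0.44, with an unadjusted p under 0.05 in 6 of 20 fits.

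Runx1 ran from 3.83 through 7.83 to 12.66 CPM in HK-treated and from 2.65 through 7.55 to 20.51 CPM in untreated mice, which gave a log2 fold change of 0.01 ± 0.26. Hdac4, which represses the genes that hold back myogenin in denervated muscle, ran from 45.18 through 54.18 to 78.79 CPM and from 46.24 through 53.54 to 70.41 CPM, a log2 fold change of 0.02 ± 0.09. For both genes the groups overlapped over most of their range.

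**Figure D2:**
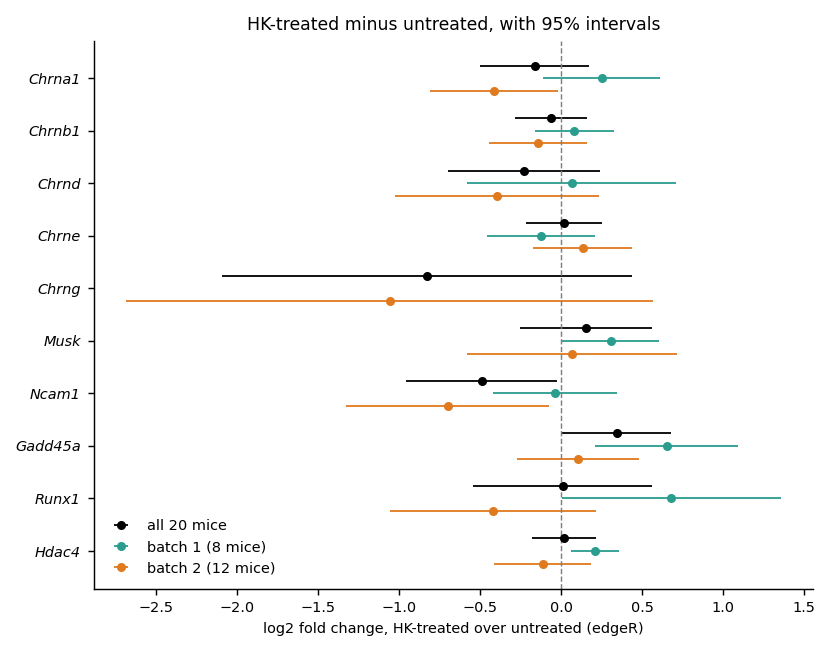
Log2 fold change (edgeR) of HK-treated over untreated mice with its 95% interval for each gene, over all 20 mice (black), batch 1 (green) and batch 2 (orange). Chrng had too few counts for the fit in batch 1. The orange points of Chrna1, Chrnb1, Chrnd, Runx1 and Hdac4 lie left of 0 while the green ones lie right of it, and for Chrne the sides are exchanged.

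The treatment was also compared within each batch. In batch 1, with 4 mice per group, 9 of the 10 genes passed the filter on low counts, 0 of them passed an adjusted p of 0.05, and 0% of 13664 genes did. Of the 9, 7 had a higher and 2 a lower level after HK, with a median log2 fold change of 0.21 beside 0.01 for all genes, and 4 had an unadjusted p under 0.05, as did 2.82% of all genes.

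Gadd45a was higher by 0.65 ± 0.20 on the log2 scale (unadjusted p = 0.00822, adjusted p = 0.997 in edgeR), with 29.87 to 80.60 CPM in 4 HK-treated and 21.89 to 50.88 CPM in 4 untreated mice. Runx1 was higher by 0.68 ± 0.30, Musk by 0.31 ± 0.13 and Hdac4 by 0.21 ± 0.07, each with the same adjusted p of 0.997 in edgeR. These differences moved with single mice: that of Runx1 was 0.41 without untreated female 1 and 1.12 without untreated female 2, and that of Musk was between 0.21 without untreated male 1 and 0.46 without untreated male 2. Hdac4 ran from 52.69 to 66.81 CPM with HK and from 50.42 to 52.37 CPM without it. It was the only 1 of the 10 members whose groups did not overlap in batch 1, as was the case for 1.34% of all genes. Chrng, with 6 to 24 counts in HK-treated and 2 to 25 in untreated mice, was compared by the exact permutation test within sex, which gave a log2 difference of 0.41 (two-sided p = 0.611; the smallest possible p is 0.0556).

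In batch 2, with 6 mice per group, all 10 genes were tested and 0 passed an adjusted p of 0.05, as did 0% of 13329 genes. Here 3 had a higher and 7 a lower level after HK, and their median log2 fold change was -0.27 beside 0.01 for all genes. Of the 10, 2 had an unadjusted p under 0.05, as did 6.47% of all genes. Chrna1 ran from 17.43 through 29.18 to 32.46 CPM with HK and from 23.99 through 33.62 to 56.49 CPM without it, a log2 fold change of -0.41 ± 0.18 (unadjusted p = 0.0421, adjusted p = 0.758 in edgeR). Ncam1 ran from 6.19 through 8.45 to 12.60 CPM and from 7.31 through 13.10 to 24.93 CPM, a log2 fold change of -0.70 ± 0.29 (unadjusted p = 0.0311, adjusted p = 0.755 in edgeR). For both genes the highest values were those of untreated mice, and the ranges overlapped. Chrng had a log2 fold change of -1.06 ± 0.75, Runx1 of -0.42 ± 0.30 and Gadd45a of 0.10 ± 0.17.

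Whether the treatment difference itself differed between batches was tested as an interaction. Of 13800 genes 0% passed, and of the 10 members 0, with the same adjusted p of 0.9997 for each. The difference in batch 2 minus that in batch 1 was below 0 for 9 of the 10, Chrne being the exception, with -0.68 ± 0.30 for Chrna1 (unadjusted p = 0.0337) and -1.05 ± 0.50 for Runx1 (unadjusted p = 0.0502). An unadjusted p under 0.05 was found for 1 of the 10 members and for 3.01% of all genes. The median over the 10 was -0.51 beside 0.00 for all genes. The interaction with sex called 0 of the 10 and likewise 0% of 13800 genes, and no member had an unadjusted p under 0.05, beside 3.5% of all genes. Its values, HK effect in males minus that in females, included -0.80 ± 0.42 for Ncam1 and -1.77 ± 1.17 for Chrng.

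A pair of the members differed in level between the sexes, with ranges that overlapped over all mice. In the sex term of the same fit, 2 of the 10 passed an adjusted p of 0.05. That share is near the 16.1% of all genes, so the count does not set the members apart from other genes. Musk was higher in males and Gadd45a higher in females.

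Musk ran from 17.22 through 33.40 to 60.60 CPM in 10 males and from 9.66 through 18.03 to 25.29 CPM in 10 females. The log2 fold change was 0.89 ± 0.20 (adjusted p = 0.00376 in edgeR), and 7 of 10 males lay above every female. In batch 1 it ran from 23.81 to 36.89 CPM in 4 males and from 12.03 to 18.26 CPM in 4 females. The sexes did not overlap there for 3 of the 10 members, Musk, Chrnb1 (38.34 to 51.12 CPM in males and 53.02 to 63.98 CPM in females) and Ncam1 (4.26 to 6.26 CPM and 7.25 to 10.73 CPM), nor for 17.4% of all genes. In batch 2 the mean log2 CPM of 6 males was 0.75 above that of 6 females, with overlap. Leaving out 1 mouse at a time gave 0.75 to 0.97, and every such fit kept the call.

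Gadd45a ran from 21.89 through 33.86 to 49.54 CPM in males and from 26.79 through 50.63 to 80.60 CPM in females, a log2 fold change of -0.58 ± 0.16 (adjusted p = 0.0178 in edgeR). All 10 males lay below the female median. The mean log2 CPM of males was lower by 0.87 in batch 1 and by 0.29 in batch 2, with overlap in both. The other 8 members had adjusted p of 0.265 to 0.947, the lowest being that of Chrnd at -0.38 ± 0.23.

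Markers of other cells and fibres differed between the sexes as well, in a comparison that 16.1% of all genes passed. Of 10 Schwann cell markers, 10 were lower in males and 5 passed the adjusted threshold, with summed levels of 49.8 to 150.6 CPM in males and 85.4 to 211.4 CPM in females. Of 7 slow fibre markers, 7 were lower in males and 6 passed, with summed levels of 771 to 6333 CPM in males and 2509 to 4690.5 CPM in females. Of 7 leukocyte markers tested, 7 were higher in males and 1 passed. None of these marker genes was at 0 in all mice, and their part in the sex differences of Musk and Gadd45a was not tested.

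**Figure D3:**
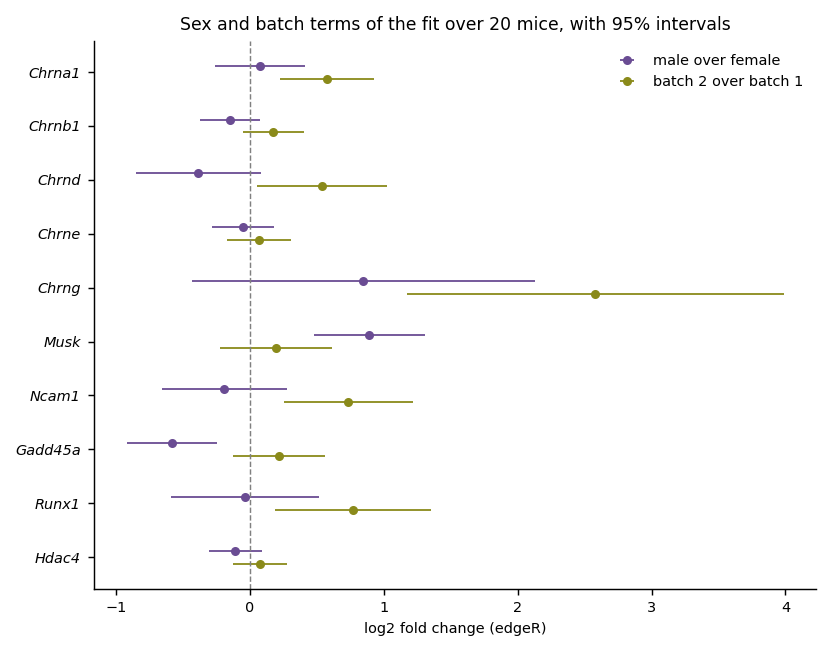
Log2 fold change (edgeR, over 20 mice) of males over females (purple) and of batch 2 over batch 1 (olive) with 95% intervals for each gene. Musk lies right of 0 and Gadd45a left of 0 for sex, and all 10 points for batch lie right of 0.

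Of the treatment, sex and batch terms, batch had the most calls. Of all genes, 37.1% passed an adjusted p of 0.05, and of the 10 members 4 passed, a share near that of all genes. All 10 members were higher in batch 2, by a median of 0.38 on the log2 scale beside 0.00 for all genes, and the 4 that passed were Chrng, Chrna1, Ncam1 and Runx1. The paper's methods name 2 separate sequencing experiments, and what differed between the batches is not stated in the labels.

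Chrng ran from 0.07 through 0.34 to 1.04 CPM in the 8 mice of batch 1 and from 0.06 through 2.04 to 19.96 CPM in the 12 of batch 2, a log2 fold change of 2.58 ± 0.67 (adjusted p = 0.00547 in edgeR). In batch 2, 9 of 12 mice lay above the highest mouse of batch 1, and HK-treated female 3 lay below its lowest. Chrna1 ran from 15.06 through 19.86 to 30.21 CPM and from 17.43 through 30.41 to 56.49 CPM, a log2 fold change of 0.58 ± 0.17 (adjusted p = 0.0108 in edgeR), with 7 of 12 mice of batch 2 above all of batch 1.

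Ncam1 ran from 4.26 through 6.76 to 10.73 CPM and from 6.19 through 9.48 to 24.93 CPM, a log2 fold change of 0.74 ± 0.23 (adjusted p = 0.0176 in edgeR). Runx1 ran from 2.65 through 5.86 to 9.81 CPM and from 3.83 through 9.13 to 20.51 CPM, a log2 fold change of 0.77 ± 0.28 (adjusted p = 0.0356 in edgeR). The Runx1 call did not hold when a single mouse was left out in 7 of 20 cases, namely untreated male 1 (0.66), untreated male 2 (0.68), untreated female 1 (0.65), untreated female 3 (0.58), HK-treated male 1 (0.77), HK-treated male 2 (0.77) and HK-treated male 3 (0.72). Chrnd, at 0.54 ± 0.23 (adjusted p = 0.0743 in edgeR), passed without HK-treated male 3 (0.59) or HK-treated female 1 (0.69).

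Within males the batches did not overlap for 3 of the 10 members, nor for 18.9% of all genes. These were Chrng (1.64 to 19.96 CPM in 6 mice of batch 2 and 0.23 to 0.44 CPM in 4 of batch 1), Chrna1 (23.42 to 56.49 CPM and 15.06 to 22.97 CPM) and Runx1 (8.32 to 12.66 CPM and 3.33 to 5.95 CPM). Within females they overlapped for all of these genes, with a difference of mean log2 CPM of 1.10 for Chrng, 0.32 for Chrna1 and 0.34 for Runx1, against 2.95, 0.83 and 1.21 in males. That the batches differ more in males was not tested.

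Other genes of the denervation response also differed between the batches. Of the 19 genes of that list that were tested, 8 passed as higher in batch 2 and 2 as lower, beside 37.1% of all genes that passed in either direction. Among them were Myog, the gene of myogenin, at 1.85 ± 0.33 (adjusted p = 0.000290 in edgeR), the embryonic myosin Myh3 at 1.62 ± 0.48, the perinatal myosin Myh8 at 0.65 ± 0.23 and the ubiquitin ligase Trim63 at 0.82 ± 0.19. Markers of leukocytes moved with the batch too: 7 of 7 tested were higher in batch 2 and 6 passed (median log2 fold change 1.90; summed levels 8.3 to 24.1 CPM in batch 1 and 21.4 to 116.5 CPM in batch 2). Satellite cell markers had summed levels of 28.1 to 42.1 CPM in batch 1 and 40.8 to 145.3 CPM in batch 2. Of these, 2 of 5 passed as higher, a share near that of all genes. The sums are mostly those of Sdc4, which over all mice ran from 20.8 through a median of 39.3 to 127.9 CPM. Pax7 ran from 0.77 through 1.93 to 2.69 CPM. The part of the leukocyte and satellite cell markers in the batch difference of the members was not tested.

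With HK, the genes around the members gave no call. In the denervation response list of 20 genes, 19 were tested, 10 higher and 9 lower, 0 past the adjusted threshold, and the median log2 fold change was 0.05. Among those with the lowest unadjusted p were Myh3 (-1.43 ± 0.45), Myh8 (-0.63 ± 0.22) and Trim63 (0.40 ± 0.18), with adjusted p of 0.795 each in edgeR. Myog was at 0.06 ± 0.30. Myh3 and Myog, too, are on the study's list of genes higher in old muscle, which was made with these untreated mice.

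Of 20 genes of synapse assembly, 18 were tested, 7 higher and 11 lower (median log2 fold change -0.03), and none had an unadjusted p under 0.05. The lowest were the neuregulin receptor Erbb2 (-0.21 ± 0.15), the syntrophin Sntb1 (-0.20 ± 0.15), the synaptic laminin Lamb2 (-0.09 ± 0.06) and utrophin, Utrn (-0.18 ± 0.14). Of 11 other nicotinic subunits only Chrna2 (0.44 ± 0.36) and Chrna9 (0.39 ± 0.40), which is on the same list of the study, had enough counts to be tested. Of 7 paralogs of the members 5 were tested, 3 higher and 2 lower, with Gadd45g, a relative of Gadd45a, at 0.90 ± 0.31 (unadjusted p = 0.0093, adjusted p = 0.795 in edgeR), Hdac7 at -0.28 ± 0.12, Gadd45b at 0.33 ± 0.29 and Runx2 at -0.09 ± 0.21. None of these genes passed the adjusted threshold in this comparison.

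The tissue label was checked with markers of skeletal muscle, whose 8 genes, among them Ckm, Myh4, Atp2a1 and Pvalb, summed to 158879 to 219531 CPM in each mouse. Schwann cell markers summed to 49.8 to 211.4 CPM, satellite cell markers, mostly Sdc4, to 28.1 to 145.3 CPM and leukocyte markers to 8.3 to 116.5 CPM. In the treatment comparison HK-treated mice had more of 8 of 10 Schwann cell markers and 5 of 8 muscle markers and less of 6 of 7 leukocyte and 4 of 5 satellite cell markers, and none of these passed the adjusted threshold. Total counts per mouse ran from 13900180 to 30469644.

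How the members vary together between mice was read from log2 CPM adjusted for batch and sex. Of 45 pairs, 34 had a Pearson r above 0, with a median of 0.21. With permutation p-values within sex and batch, adjusted over the 45 pairs, 7 pairs passed 0.05, 6 of them positive. The shares among pairs of all genes were not computed, so these counts do not show that the members vary together more than other genes do. By Spearman's rho 4 of the 7 passed.

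**Figure D4:**
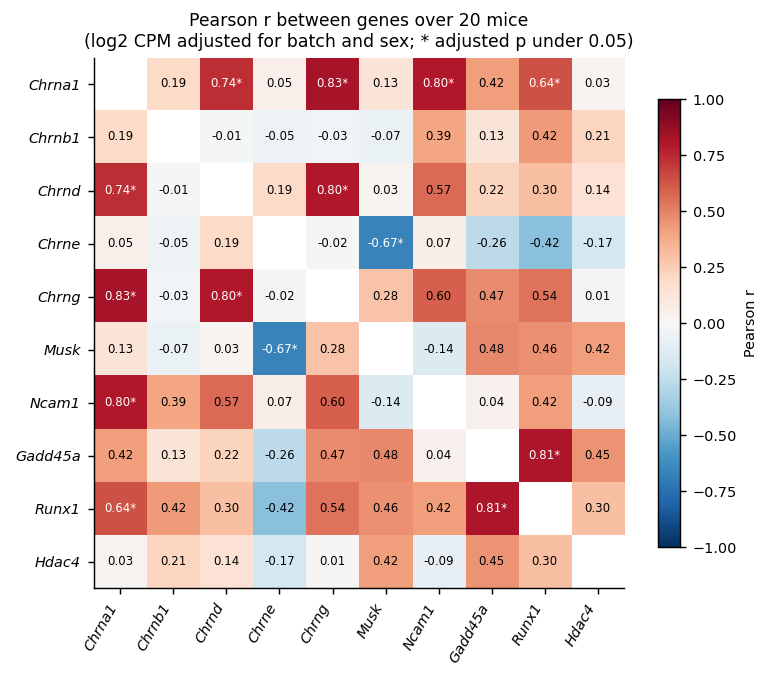
Pearson r between each pair of the 10 genes over 20 mice, from log2 CPM adjusted for batch and sex, in red where positive and blue where negative, with a star where the adjusted p was under 0.05. Chrna1 has 4 starred partners, and the starred square of Chrne and Musk is the blue one, at -0.67.

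Chrna1, Chrnd and Chrng varied together. Chrng is the subunit of the fetal form of the receptor, whereas Chrna1 and Chrnd belong to both the fetal and the adult form. Chrnb1 also belongs to both forms, but none of its pairs with them passed an adjusted p of 0.05. Its r values close this paragraph, and whether they differ from those of the other pairs was not tested. Chrna1 and Chrng had r = 0.83 (permutation p = 0.000350, adjusted p = 0.00690; rho = 0.71, adjusted p = 0.0333), which was 0.55 within the 8 mice of batch 1, 0.87 within the 12 of batch 2, and 0.62 without untreated male 5 and HK-treated female 3, the mice farthest from the median of Chrna1. Chrnd and Chrng, which lie side by side on chromosome 1, had r = 0.80 (permutation p = 9.0e-05, adjusted p = 0.00405; rho = 0.75, adjusted p = 0.00427), with 0.72 and 0.83 within the batches and 0.75 without untreated male 5 and HK-treated male 3. Chrna1 and Chrnd had r = 0.74 (permutation p = 0.00151, adjusted p = 0.0113; rho = 0.63, adjusted p = 0.0560). This last pair did not pass without untreated male 5 (r = 0.60, adjusted p = 0.0715) or without HK-treated female 3 (r = 0.70, adjusted p = 0.0565), and it was 0.53 without both. The adult subunit Chrne had r between -0.05 and 0.19 with each of the other 4 subunits, and Chrnb1 had r between -0.05 and 0.19 with them.

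Ncam1 followed Chrna1 with r = 0.80 (permutation p = 0.000460, adjusted p = 0.00690; rho = 0.82, adjusted p = 0.00405), with 0.53 and 0.83 within the batches and 0.77 without untreated male 5 and HK-treated female 3. Runx1 and Gadd45a had r = 0.81 (permutation p = 0.000690, adjusted p = 0.00776; rho = 0.74, adjusted p = 0.0377), with 0.95 and 0.63 within the batches and 0.70 without HK-treated females 1 and 3. Chrna1 and Runx1 had r = 0.64 (permutation p = 0.000890, adjusted p = 0.00801; rho = 0.57, adjusted p = 0.0560), with 0.70 and 0.55 within the batches and 0.59 without untreated male 5 and HK-treated female 3.

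The negative pair was Chrne and Musk, with r = -0.67 (permutation p = 0.00292, adjusted p = 0.0188; rho = -0.54, adjusted p = 0.141), which was -0.60 in batch 1 and -0.71 in batch 2, and -0.62 without untreated females 1 and 3. Mice with more Musk tended to have less of the adult subunit. The adjusted p passed 0.05 in the full set but not without untreated male 3 (r = -0.61), untreated female 1 (-0.65), HK-treated male 5 (-0.59) or HK-treated female 3 (-0.64). Hdac4 and Chrnb1 had no partner that passed.

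**Figure D5:**
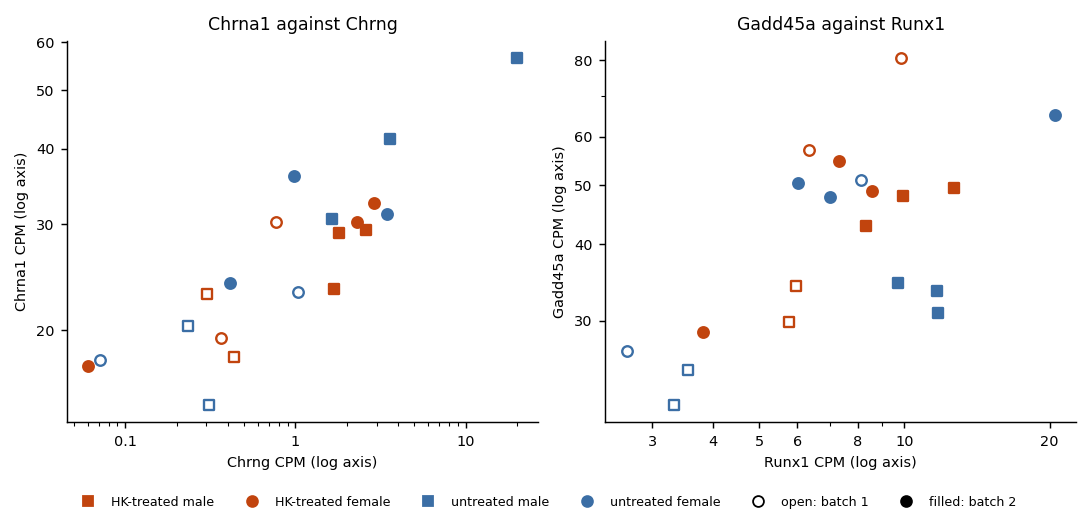
Chrna1 against Chrng (left) and Gadd45a against Runx1 (right), in CPM on log axes, 1 point per mouse, with open points for batch 1, filled points for batch 2, squares for males and circles for females. The values are not adjusted for batch and sex, and untreated male 5 is the point at the upper right of the left panel, at 19.96 CPM of Chrng and 56.49 CPM of Chrna1.

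Marker RNA of other cell types and of slow fibres was set beside this variation. With the mean of the leukocyte markers, adjusted in the same way, Chrna1 had r = 0.68 (rho = 0.72), Ncam1 0.65 (rho = 0.74), Chrng 0.59 (rho = 0.53) and Runx1 0.59 (rho = 0.63), and Ncam1 had r = 0.65 (rho = 0.66) with the slow fibre markers. With the Schwann cell markers Runx1 had r = -0.55 (rho = -0.61). By Pearson's r none of the 40 relations between the 10 genes and 4 marker lists passed an adjusted permutation p of 0.05, the lowest being 0.146. By Spearman's rho 2 of the 40 passed, those of Chrna1 and Ncam1 with the leukocyte markers, each with an adjusted permutation p of 0.0162. Their part in the pairs of members was not tested.

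For the 3 members with the closest match among the other 13625 genes, the genes most alike over the 20 mice were ranked by Pearson r of the adjusted log2 CPM, as a description. For Chrng these were Mymx, a gene of myoblast fusion (r = 0.94), Aif1l (0.92), Spg21 (0.87), Ncbp2 (0.84) and Chrna1 (0.83). For Ncam1 they were Tnnt2, the cardiac troponin T also made in immature muscle fibres (0.92), Myh3 (0.90), Osbpl3 (0.88), Tmem176b (0.87) and Maged1 (0.87). For Runx1 they were Hmox1, heme oxygenase 1 (0.90), Atp6ap2 (0.85), Ftl1, the ferritin light chain (0.84), Med1 (0.83) and Pvr (0.83).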

How the data were processed

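RNA of the gastrocnemius was sequenced in 10 HK-treated and 10 untreated mice. Per the paper's methods, the authors mapped the reads to GRCm38.p6 with STAR 2.6.1c and quantified the genes of GENCODE M25. For their own analysis they adjusted for library size, stabilized the variance and corrected for sequencing experiment and sex. The deposited values used here are raw counts per gene, without normalization or batch correction. How reads were counted, and whether by strand, is not given in the sources used here. Total counts per mouse ran from 13900180 to 30469644.

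Gene symbols, positions and exon lengths came from GENCODE M21 on GRCm38, older than the M25 of the authors, and all 10 members matched. Counts were tested in R 4.3.3 with edgeR 4.0.16 (quasi-likelihood test, TMM, filterByExpr, batch and sex as covariates, Benjamini-Hochberg adjustment over all genes tested), with DESeq2 1.42.0 and limma 3.58.1 voom as alternatives, and the test was tried on simulated data. A call is an adjusted p under 0.05, and ± after a log2 fold change is its SE. Log2 CPM used a prior count of 2, and correlations used 100000 permutations within sex and batch in Python 3.11.15 with numpy 2.4.6. Other settings were DESeq2 size factors, no filter, other sets of covariates (none, or batch without sex), a replicate block, fits on 1 batch or 1 sex, fits without 1 mouse, a prior count of 0.5, Spearman's rho and other adjustments of the correlations.

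The members and lists were chosen with earlier results of these data known. All members are named, and of each list up to 4 genes with the lowest unadjusted p for treatment, plus Myog, leaving out 1 gene that is not reported here. Genes most alike are named for the 3 members with the highest r. Leaving out each mouse within a batch, the relations to marker lists, sex within batch and batch within sex, the shares of genes whose groups do not overlap, coefficients of variation without 1 mouse and outliers on the log2 scale were added after seeing the data.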

Additional observations from a re-analysis of the deposited data

Results flagged for a closer look

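In 20 groups checked, the 10 members in HK-treated and in untreated mice, 2 CPM values stood farther from the rest than Dixon's limit for 10 mice. That limit flags about 1 in 20 groups by chance where values are normally distributed, whereas CPM are skewed and each group mixes batches and sexes. In log2 CPM the gap to the next mouse was 35.8% of the range for Chrng and 27.7% for Runx1, and neither value was past the limit. Chrng in untreated male 5 was at 19.96 CPM, with the next untreated mouse at 3.61 CPM. The same mouse had the highest Chrna1, Chrnd and Ncam1 of all 20. Runx1 in untreated female 3 was at 20.51 CPM, with the next untreated mouse at 11.71 CPM, and this mouse also had the highest Chrnb1 of all 20, at 86.03 CPM. Without it the log2 fold change of Runx1 for treatment was 0.20 ± 0.23 in place of 0.01 ± 0.26.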

How the results depend on the processing

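The count of members past the adjusted threshold, or of pairs, stayed within 1.5 times its reported value under every alternative run except those named here. With no filter on low counts it was 3 in place of 0 for treatment, beside 502 of 30096 genes. For sex it was 4 in place of 2, beside 2784 of 30096 genes. It was 2 in place of 0 for treatment within batch 1, beside 222 of 27513 genes. The interactions also gave 2 in place of 0 each, beside 225 of 30096 genes for treatment by batch and 314 of 30096 for treatment by sex. In the unfiltered fit for treatment the median SE of the members was 0.083 in place of 0.179, and the cause was not tested. By Spearman's rho 4 pairs passed in place of 7. Leaving out 1 mouse at a time gave 0 calls for treatment in every fit, 2 to 3 for sex, 3 to 5 for batch and 5 to 9 pairs.

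The direction for treatment turned in batch 1 alone for Chrna1 (0.25), Chrnb1 (0.082), Chrnd (0.065) and Chrne (-0.13), in batch 2 alone for Runx1 (-0.42) and Hdac4 (-0.11), in males alone for Chrnb1 (0.076), in females alone for Chrna1 (0.0002), Chrnd (0.084), Chrne (-0.019), Chrng (0.12), Musk (-0.050), Runx1 (-0.21) and Hdac4 (-0.11), and with no covariates for Runx1 (-0.10), none of them a call. Leaving out 1 mouse turned it for Chrnb1 (-0.11 to 0.0031), Chrne (-0.036 to 0.088), Runx1 (-0.12 to 0.20) and Hdac4 (-0.060 to 0.065).

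Same-numbered mice did not consistently deviate together (r between -0.33 and 0.23 over 10 pairs). With only 2 or 3 mice of each sex and treatment in a batch, this check cannot tell whether they share a litter, cage or run. With the replicate block 0 of the 10 members were called for treatment, as without it, and Ncam1 was at -0.40 and Gadd45a at 0.32. Depth limits Chrng most, with as few as 1 count in a mouse.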
